A study of Homo sapiens with 2 samples.

Results

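The genes described here encode the enzymes of cholesterol and fatty acid synthesis and the proteins that govern them through the sterol regulatory element-binding proteins (SREBPs). A list of 32 genes was taken by gene symbol, and 29 of them had at least 1 probe set on the arrays that the platform annotation assigns to that gene alone, out of 19775 genes measured in this way. They were divided into a sterol arm of 18 enzymes (16 measured), a fatty acid arm of 9 genes (8 measured), and 5 genes of SREBP control and sterol transport (all measured). CYP51A1 and FADS1 were covered by 2 and 3 probe sets that the annotation shares with a second gene, so no value is given for them, and FDFT1 was not analysed here. Members were chosen with earlier results of these data known, so counts of them only describe the list. The measurements came from QGP1, an established human cell line from a pancreatic neuroendocrine tumour. RNA of QGP1 cells sorted by flow cytometry for high aldehyde dehydrogenase (ALDH) activity, a property used to enrich for stem-like tumour cells, was hybridised to 1 array, and RNA of control QGP1 cells to another. The comparison asked which genes set ALDH-high cells apart from the line. No treatment, time or genetic change is labelled for either group, and the labels do not say whether control cells were sorted.

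Each value is the level of a probe set on the log2 scale after RMA, in which a difference of 1 is a 2-fold difference, and each difference is ALDH high minus control. With 1 array per group, no difference has a replicate check, an SD or a p-value. A gene was counted as higher or lower when its main probe set, the one with the highest mean of both arrays, differed by more than 1.5-fold (0.58 on the log2 scale). As a yardstick, the pooled SD of differences between the probe sets of a gene was taken. It was 0.23 over the 19 members with more than 1 probe set, and 0.23 over 10523 genes of the array. This spread leaves out variation between cultures and sorts.

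SREBPs are transcription factors made as precursors in the membrane of the endoplasmic reticulum. When sterols are scarce, the escort protein SCAP carries the precursor to the Golgi, where proteases release the active domain, and when sterols are plentiful INSIG proteins retain SCAP. SREBF2 encodes the form that acts mainly on cholesterol genes, and SREBF1 encodes forms that act more on fatty acid genes and is itself induced by liver X receptors, the sensors of excess sterol. SREBPs bind sterol regulatory elements and E-boxes and act together with NF-Y, which binds CCAAT boxes, and with Sp1, which binds GC boxes.

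The promoters of the members held CCAAT boxes at a higher share than the RefSeq table as a whole. RefSeq promoter windows of GRCh38.p14, from 250 bases before to 50 bases after a gene's start, were found for 28 of the 32 genes. The letters CCAAT, read on either strand, were present for 13 of 15 sterol arm genes (86.7%), 5 of 8 fatty acid arm genes (62.5%) and 3 of 5 regulators (60%). The share was 39.7% over 27305 genes of the table and 43.2% over 10376 of its genes measured at or above the median array level of 5.68. In the sterol arm 10 of 15 genes (66.7%) had a window with at least 2 such boxes. This share was 12.9% of all genes and 16.1% of those at or above the median level. A gene with several annotated starts has more chances of a match, but per window the shares were 75% of 20 for the sterol arm and 34.6% of 35116 for the table. GGGCGG was found in 27 of 28 members (96.4%), against 48.3% of all genes and 75.9% of those at or above the median level. CACGTG was found in 4 of 28 (14.3%), against 8.77% of all genes and 12.4% of those at or above the median level. The strict sterol regulatory element TCACNCCAC occurred in 1 of 28 members, SREBF2, and in 1.39% of all genes (1.52% at or above the median level). The shares are descriptions of letters, not of bound sites.

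To show these arrangements, the 250 bases before the start are given for 4 members: MSMO1 and NSDHL as sterol enzymes with at least 4 CCAAT boxes, INSIG1 for its E-box, and SREBF2 for its sterol regulatory element. Capitals mark the CCAAT box on either strand, the E-box and the sterol regulatory element, and in NSDHL a pair of boxes on opposite strands overlaps.
MSMO1 (chr4:165327419-165327668, plus strand): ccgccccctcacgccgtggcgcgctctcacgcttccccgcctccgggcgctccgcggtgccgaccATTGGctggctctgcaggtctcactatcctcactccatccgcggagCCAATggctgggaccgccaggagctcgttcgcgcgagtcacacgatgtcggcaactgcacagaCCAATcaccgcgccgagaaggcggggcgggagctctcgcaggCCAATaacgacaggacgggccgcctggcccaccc
NSDHL (chrX:152830813-152831062, plus strand): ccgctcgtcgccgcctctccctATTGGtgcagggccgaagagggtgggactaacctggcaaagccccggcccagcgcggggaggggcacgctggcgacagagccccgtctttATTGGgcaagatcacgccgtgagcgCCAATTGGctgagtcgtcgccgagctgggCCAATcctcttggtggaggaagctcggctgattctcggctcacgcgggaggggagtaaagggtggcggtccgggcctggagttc
INSIG1 (chr7:155297628-155297877, plus strand): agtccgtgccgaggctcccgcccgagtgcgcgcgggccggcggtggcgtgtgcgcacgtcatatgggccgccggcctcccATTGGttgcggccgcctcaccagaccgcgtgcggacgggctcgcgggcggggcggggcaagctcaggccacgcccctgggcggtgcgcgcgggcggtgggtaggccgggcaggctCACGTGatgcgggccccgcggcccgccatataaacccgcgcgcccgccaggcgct
SREBF2 (chr22:41832855-41833104, plus strand): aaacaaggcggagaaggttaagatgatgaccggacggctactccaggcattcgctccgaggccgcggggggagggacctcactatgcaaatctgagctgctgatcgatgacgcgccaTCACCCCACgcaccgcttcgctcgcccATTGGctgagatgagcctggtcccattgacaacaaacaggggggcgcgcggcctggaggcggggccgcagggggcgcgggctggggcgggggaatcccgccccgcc
MSMO1 had 4 CCAAT boxes and NSDHL 5, and their levels differed by 0.69 and 0.44 between the arrays. MVK also had 5 and differed by 0.04. In INSIG1 the E-box began 55 bases before the start and the CCAAT box 170 bases before it. In SREBF2 the sterol regulatory element began 133 bases before the start, with a CCAAT box starting 106 bases before it.

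Of the 16 measured enzymes of cholesterol synthesis, 6 were higher by more than 1.5-fold in ALDH high (37.5%) and none was lower by that much. The main probe sets of all 16 gave differences above 0, from 0.04 to 1.10 on the log2 scale, but those of MVK (0.04), PMVK (0.15) and TM7SF2 (0.22) lay within the spread of 0.23, and IDI1 stood at -0.05 without the shared-target probe sets (IDs ending in _s_at or _x_at, which can bind more than 1 transcript). The median of the 16 enzymes was 0.50, a 1.41-fold higher level, while the median over all 19775 genes was -0.01. The background was 2.61% of all genes higher and 4.21% lower by this rule, and among the 12828 genes at or above the median level, where all 16 enzymes lay, these shares were 3.60% and 5.68%. Because the enzymes were listed with earlier results of these data known, their excess over these shares is a description only. At a looser threshold of 0.32 on the log2 scale, 13 of the 16 were higher and none was lower, where 10.0% and 12.0% of all genes, and 12.4% and 14.3% of those at or above the median level, were. When the probe sets of a gene were averaged, 3 of the 16 were over 1.5-fold higher. At the level of probe sets, 31 of 34 were above 0, with 2 below it and 1 equal on both arrays. These are repeated readings of the same 16 genes on the same arrays, and 18 of the 34 are of the shared-target type. The share above 0 over all probe sets was not computed, and by main probe set 45.6% of all genes were above 0. Poly-A control RNAs, spiked in before labelling, were also higher on the ALDH-high array, with a mean difference of 0.32 (24 probe sets, SD 0.07), and their part in these differences was not tested. In bulk RNA, fewer cells of a type and less RNA per cell cannot be told apart.

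**Figure D1:**
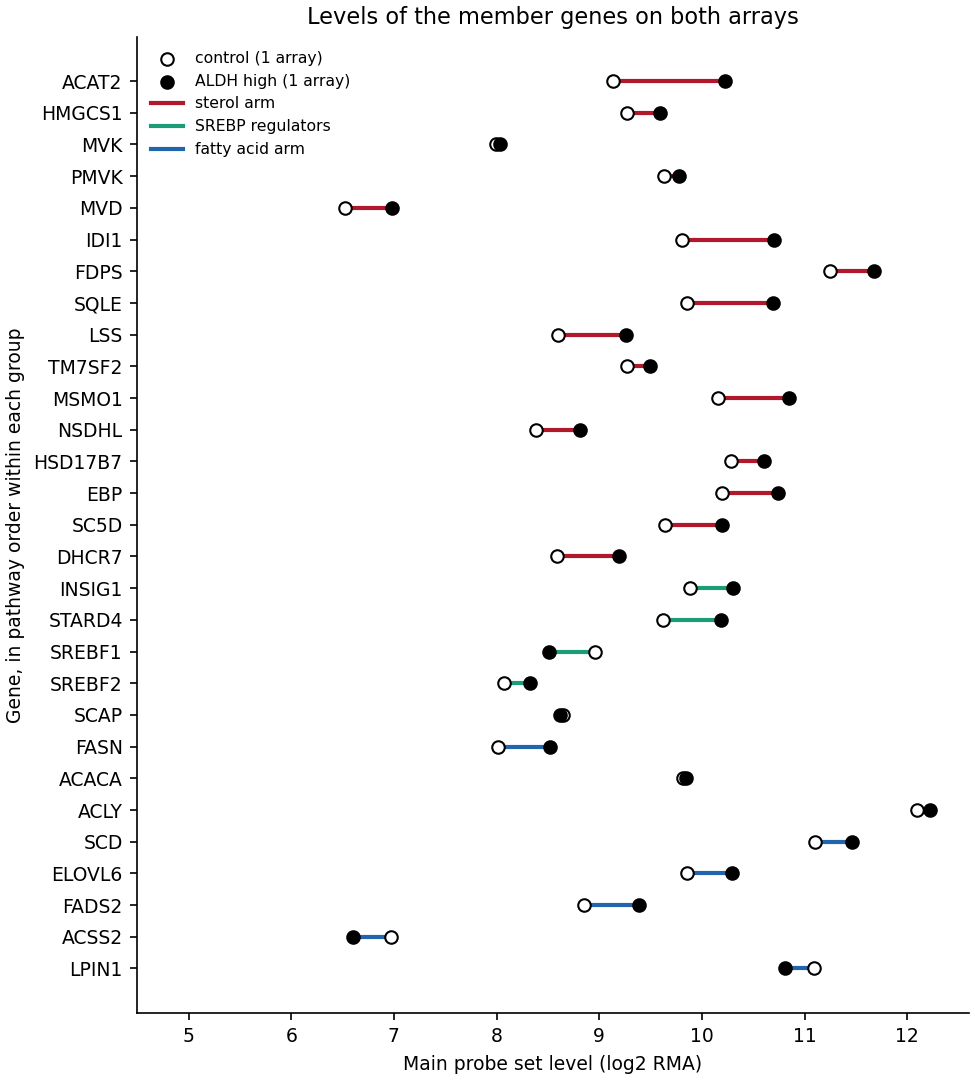
Level of the main probe set (log2 RMA, horizontal axis) of each of the 29 measured members on the control array (open circles) and the ALDH-high array (filled circles), with lines coloured by group. The filled circle lies to the right of the open one in all 16 sterol arm genes, whereas SREBF1, SCAP, ACSS2 and LPIN1 have it to the left.

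The first steps of the pathway, from acetoacetyl-CoA to farnesyl diphosphate, held both the largest and the smallest differences of the arm. ACAT2, the cytosolic thiolase that makes acetoacetyl-CoA, had a level of 10.23 on the ALDH-high array and 9.13 on the control array. This 2.14-fold difference (1.10) was the only one over 2-fold among the members, where 0.465% of all genes and 0.670% of those at or above the median level were over 2-fold higher, and it rested on a single probe set open to cross-hybridisation. In the RefSeq gene table the ACAT2 gene overlaps SOD2 and TCP1, a chaperonin subunit gene. SOD2 stood at 5.93 against 6.29 (-0.36), and TCP1 was not analysed here. HMGCS1, which condenses acetoacetyl-CoA to HMG-CoA, stood at 9.59 against 9.27, with 0.15 on the other probe set.

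The kinases that follow were nearly level. MVK, mevalonate kinase, stood at 8.03 in ALDH high and 7.99 in control, and its 4 probe sets ranged from -0.12 to 0.17, so that it had no single direction. PMVK, phosphomevalonate kinase, stood at 9.78 against 9.63 on its single probe set. Downstream of them the differences widened again. MVD, the decarboxylase that yields isopentenyl diphosphate, had levels of 6.98 and 6.52 (0.46).

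IDI1, the isomerase of isopentenyl diphosphate, had a level of 10.70 in ALDH high and 9.81 in control, which is 1.85-fold higher. Its bright probe sets agreed at 0.89 and 0.94, but both are of the shared-target type that can bind more than 1 transcript. The remaining probe sets were dimmer and nearly level, at 0.06 (6.72 against 6.66) and -0.05 (5.99 against 6.05). The last of these was the only IDI1 probe set outside the shared-target type, so the difference without shared-target probe sets was -0.05, and it was 0.46 as the mean of all 4. FDPS, which builds farnesyl diphosphate for sterols, dolichol and protein prenylation, stood at 11.68 against 11.25, or 1.35-fold higher. In the RefSeq gene table FDPS overlaps RUSC1-AS1, which stood at 9.14 against 8.16 (0.97). IDI1 overlaps IDI2-AS1, at 5.36 against 4.52 (0.85), and WDR37, at 8.25 against 8.28 (-0.03). The part of these overlaps in the differences was not tested.

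The measured steps from squalene to lanosterol were both over 1.5-fold higher. SQLE, squalene epoxidase, a rate-controlling oxygen-dependent step, had a level of 10.69 in ALDH high and 9.86 in control, a 1.77-fold higher level. All 4 SQLE probe sets were over 1.5-fold higher, from 0.74 to 1.12. LSS, which folds squalene epoxide into lanosterol, stood at 9.26 against 8.60 (1.58-fold). Its dim probe sets pointed the same way, at 0.70 (5.33 against 4.63) and 0.16 (4.85 against 4.69).

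Enzymes after lanosterol, which trim methyl groups and shift double bonds to give cholesterol, lay between 0.22 and 0.69 with a median of 0.54 over 7 genes. MSMO1, the methylsterol oxidase of the demethylation steps, had levels of 10.85 in ALDH high and 10.16 in control (1.61-fold, 1 probe set). Its partners in demethylation differed less. NSDHL, the dehydrogenase, stood at 8.81 against 8.38, with its second probe set at 0.37. HSD17B7, the ketoreductase, stood at 10.61 against 10.28, on a probe set that could also bind the near-identical pseudogene HSD17B7P2, for which a dim probe set gave 0.37 (4.57 against 4.19).

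Of the other enzymes after lanosterol, DHCR7 was over 1.5-fold higher and SC5D, EBP and TM7SF2 were not. DHCR7, the reductase that produces cholesterol from its last precursor in one branch, had levels of 9.19 and 8.59 (1.51-fold), with its second probe set at 0.47. SC5D, the sterol desaturase, stood just under the threshold at 10.20 against 9.64 (1.48-fold). Its second probe set, dim on both arrays (4.92 against 4.81), gave 0.11. EBP, the sterol isomerase, stood at 10.74 against 10.20 (1.45-fold). The EBP probe sets spread from 0 to 0.65, the brighter pair giving 0.54 and 0.65, and the dimmest (6.11 on both arrays) was level. TM7SF2, a sterol reductase of the nuclear envelope and endoplasmic reticulum, differed least, at 9.49 against 9.27.

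**Figure D2:**
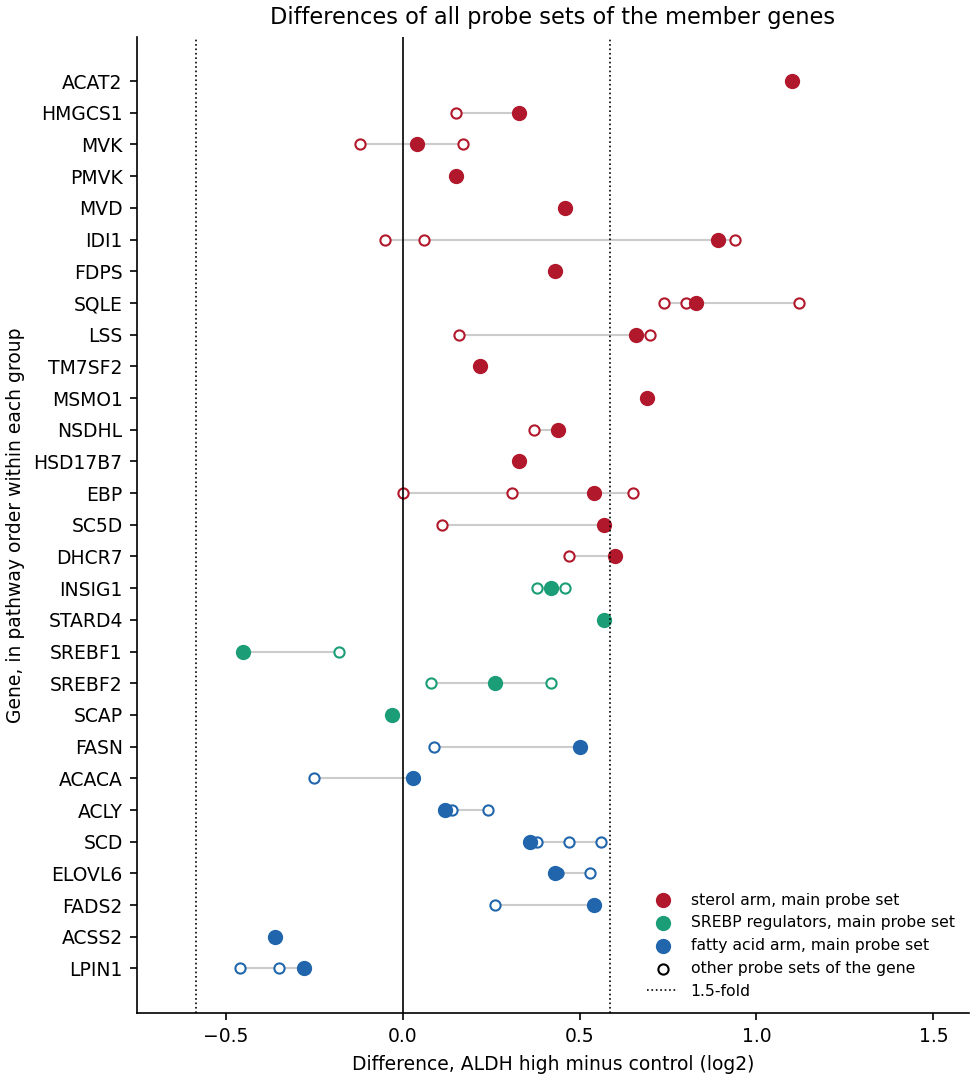
Difference between ALDH high and control (log2, horizontal axis) for every probe set of the 29 measured members, with the main probe set filled, the others open, and dotted lines at 1.5-fold. The 4 SQLE points all lie beyond the dotted line, IDI1 is split between 0.94 and -0.05, and LPIN1 and SREBF1 lie wholly below 0.

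The regulators did not share one direction. INSIG1, the retention protein that is itself a sensitive SREBP target, had levels of 10.30 in ALDH high and 9.88 in control (0.42), and its 3 probe sets agreed closely, from 0.38 to 0.46. STARD4, an SREBP-responsive carrier of cholesterol between membranes, stood at 10.19 against 9.62 (0.57, or 1.49-fold). These SREBP-responsive members thus lay near the median of the sterol enzymes, and neither passed 1.5-fold.

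The transcription factor genes differed in sign from each other. SREBF2 stood at 8.33 in ALDH high and 8.07 in control, with its 3 probe sets between 0.08 and 0.42. SREBF1 was lower, at 8.51 against 8.96 (-0.45, or 1.37-fold lower), with its second probe set at -0.18. SCAP, the escort, was level at 8.62 against 8.65. None of the 5 regulators was over 1.5-fold different, also near the background, and their median was 0.26. At the looser threshold of 0.32 on the log2 scale, 2 of the 5 were higher and 1 was lower. By that rule 10.0% of all genes were higher and 12.0% lower.

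The fatty acid arm held differences of both signs. Of its 8 measured genes 6 had higher levels in ALDH high and 2 lower levels, from -0.36 to 0.54, and none was over 1.5-fold in either direction. With 2.61% of all genes higher and 4.21% lower, a count of none among 8 is near the background. At the looser threshold of 0.32 on the log2 scale, 4 of the 8 were higher and 1 was lower. By that rule 10.0% of all genes were higher and 12.0% lower. Among genes at or above the median level these shares were 12.4% and 14.3%. The arm was listed with earlier results of these data known, so these counts only describe it. The genes that build and modify long-chain fatty acids lay close to the sterol median. FASN, the fatty acid synthase, had levels of 8.52 and 8.01 in ALDH high and control (1.42-fold), while a dimmer probe set gave 0.09 (5.87 against 5.78). Both FASN probe sets are of the shared-target type. SCD, the desaturase that makes oleate, stood at 11.46 against 11.10, and its 4 probe sets lay between 0.36 and 0.56.

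ELOVL6, the elongase of palmitate, stood at 10.29 against 9.86, with its 3 probe sets between 0.43 and 0.53. FADS2, the first desaturase of polyunsaturated fatty acid synthesis, stood at 9.39 against 8.85 (1.45-fold) on a shared-target probe set, and its second probe set gave 0.26. In the RefSeq gene table FADS2 overlaps FADS1, for which no value is given. SCD and ELOVL6 were thus below 1.5-fold on every probe set, yet with all of their probe sets on one side. All 4 SCD probe sets are of the shared-target type, so SCD has no value without them.

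The suppliers of carbon to this arm differed little or were lower. ACLY, which makes cytosolic acetyl-CoA from citrate, stood at 12.22 in ALDH high and 12.10 in control (0.12), and its other probe sets gave 0.14 and 0.24. ACACA, the acetyl-CoA carboxylase that commits carbon to fatty acids, stood at 9.85 against 9.82 (0.03). Its second probe set pointed the other way, at -0.25 (8.41 against 8.67).

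ACSS2, which makes acetyl-CoA from acetate and needs no citrate, was lower in ALDH high, at 6.60 against 6.97 (-0.36, or 1.29-fold lower, 1 probe set). LPIN1, a phosphatidate phosphatase of glycerolipid synthesis that also acts as a transcriptional cofactor, was lower as well, at 10.81 against 11.09. All 3 LPIN1 probe sets were below 0, from -0.46 to -0.28.

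Set side by side, the sterol arm had a median of 0.50 and the fatty acid arm a median of 0.24, a difference of 0.26 that cannot be tested with 1 array per group. The ranges overlapped. Of the sterol enzymes 7 of 16 lay above FADS2, the highest fatty acid gene, and 3 of 16 (MVK, PMVK and TM7SF2) lay below the fatty acid median, while 2 of 8 fatty acid genes (FASN and FADS2) lay above the sterol median. Over all 29 members, 25 were above 0 (86.2%), and the median was 0.43. The share above 0 was 45.6% of all genes and 48% of those at or above the median level, where all 29 lay. Without shared-target probe sets, 10 sterol genes had a median of 0.43 and 4 fatty acid genes one of 0.14, a difference of 0.29. Fewer genes remained in each arm under this setting, so these medians are not of the same genes.

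**Figure D3:**
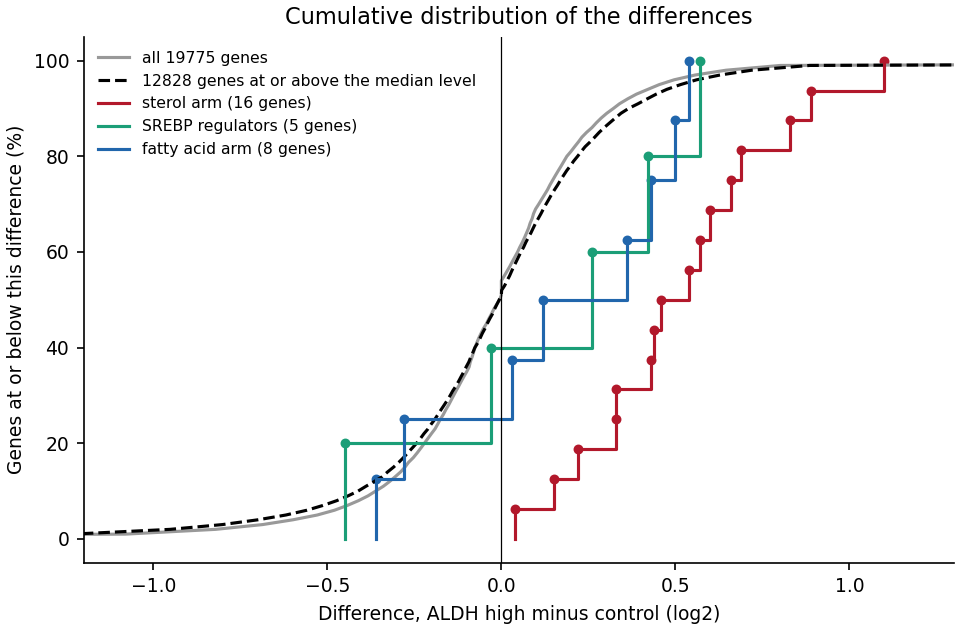
Cumulative share of genes (vertical axis, percent) at or below each difference between ALDH high and control (log2, horizontal axis) for all genes, for genes at or above the median level, and for each group of members, whose dots are single genes. The sterol arm lies wholly to the right of 0 with a median of 0.50, and the fatty acid arm, median 0.24, begins at -0.36 and ends at 0.54.

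Genes around the pathway that are not members were taken from a list of 38, of which 31 were measured. Their median was 0.01. Of the 31, 1 gene was over 1.5-fold higher (3.23%), against 2.61% of all genes and 3.60% of those at or above the median level. A further 6 of the 31 were over 1.5-fold lower, against 4.21% and 5.68%. The list was chosen with earlier results of these data known, so these counts only describe it. The higher one was LBR, the lamin B receptor, which also carries a sterol reductase activity that overlaps with that of TM7SF2. It stood at 10.18 in ALDH high and 9.53 in control (1.57-fold, 1 probe set). The genes of sterol synthesis in this list, LBR, ERG28, GGPS1 and HSD17B7P2, were all above 0 on their main probe sets, although 1 of the 3 ERG28 probe sets and 1 of the 2 GGPS1 probe sets were below 0. TMEM97, a membrane protein that responds to SREBP and binds NPC1, gave from 0.33 to 0.57 on its 4 probe sets.

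The largest differences in this wider list were those of sterol efflux. ABCG1, a transporter that exports cholesterol and is induced by liver X receptors, had a level of 5.18 in ALDH high and 6.78 in control on its main probe set, 3.04-fold lower. All 4 ABCG1 probe sets were over 2-fold lower, from -2.53 to -1.21. Their ALDH-high levels (3.49 to 5.18) all lay below the array median, and 1 of them was below it in control too (4.70), so the size of this fold also depends on dim levels. ABCA1, the exporter of cholesterol to apolipoprotein, stood at 3.95 against 5.74 (3.45-fold lower), and a further probe set gave -2.04. Its ALDH-high level was dim, its remaining probe sets were dim on both arrays (-0.11 and -0.03), and with a pseudocount of 32 the difference was -0.85, so the size of the fold depends on a level near the floor. Of all genes 1.23% were over 2-fold lower. The corresponding 1.75% among genes at or above the median level is no measure for this pair, because their main probe sets reached that level on the control array alone.

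Other genes tied to liver X receptors differed less. MYLIP, a ubiquitin ligase also induced by them, was level (8.44 against 8.50), its 6 probe sets lying between -0.05 and 0.11. NR1H3, which encodes a liver X receptor, stood at 5.90 against 5.81. SREBF1, the member known as a liver X receptor target, was 1.37-fold lower as given above. NPC2, the lysosomal protein that hands cholesterol to NPC1, was 1.97-fold lower (9.90 against 10.88, 1 probe set), whereas NPC1 itself stood at 8.87 against 8.72.

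INSIG2, the second retention protein, stood at 8.50 in ALDH high and 8.88 in control, opposite in sign to INSIG1. The proteases that release SREBPs were nearly level, MBTPS1 at 0.06 and MBTPS2 at 0.14. SCD5, a second stearoyl-CoA desaturase, was 1.76-fold lower (7.49 against 8.31), opposite in sign to SCD. Its second probe set agreed at -0.63, the dim others gave -0.09 and -0.12, and the mean of all 4 was -0.41.

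**Figure D4:**
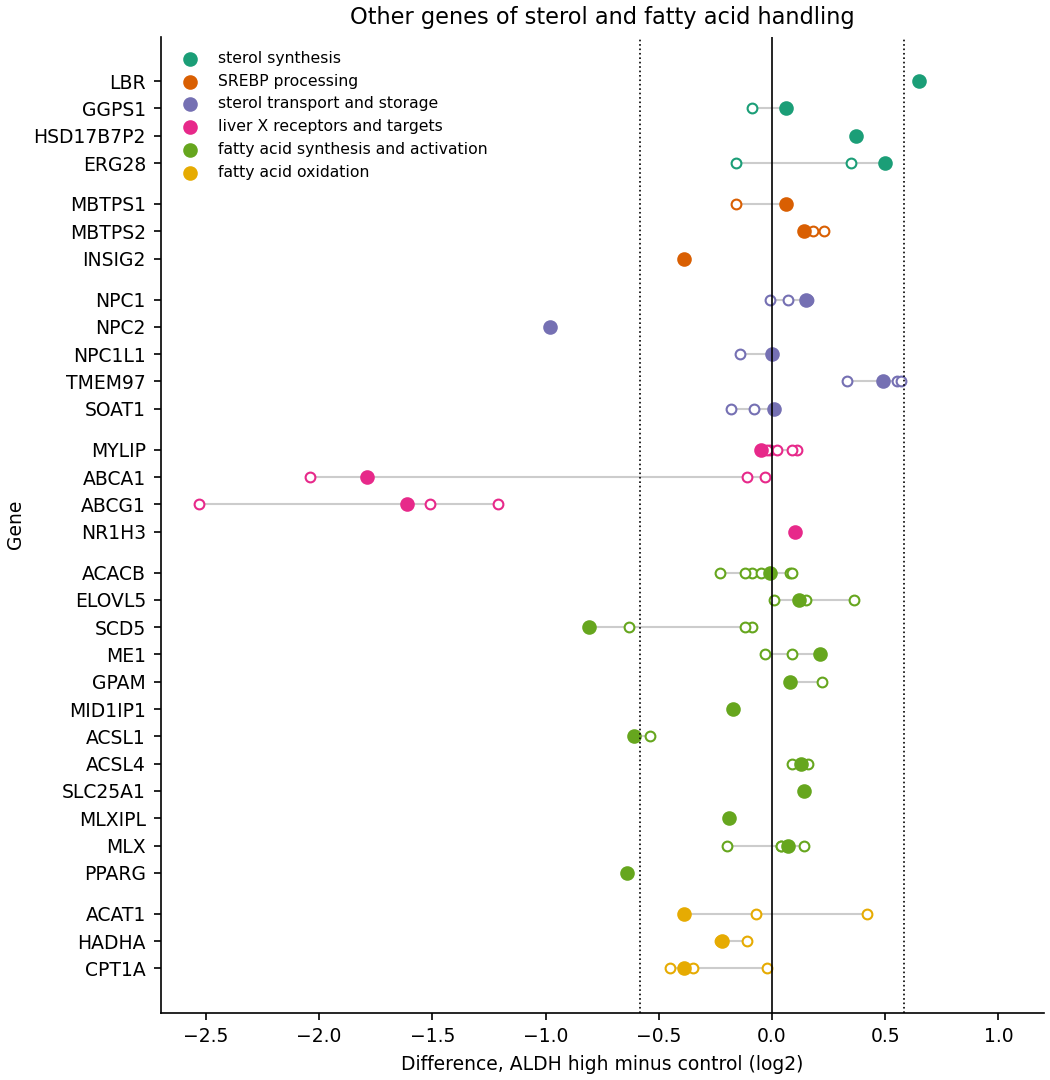
Difference between ALDH high and control (log2, horizontal axis) for every probe set of the 31 measured genes outside the member list, coloured by role, with the main probe set filled and dotted lines at 1.5-fold. ABCG1 has all 4 of its points below -1.2, ABCA1 is split between -2.04 and -0.03, and LBR is the only gene with its main point beyond the upper dotted line.

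The arrays were checked for signs that could move with these differences. Neuroendocrine markers were bright on both arrays, 10 of 11 being at or above the median level, with SCG2 at 13.69 in ALDH high and 13.77 in control and CHGA at 11.50 and 11.70. PTPRN was dim on both (5.02). The neuroendocrine markers had a median difference of -0.11, and most lay below 0. The lowest were SNAP25 at -0.60 (11.19 against 11.79), SCG5 at -0.37 and NCAM1 at -0.30. SYP and PTPRN were level, and only INSM1 lay above 0, at 0.34. All 5 epithelial markers were bright, with differences from -0.23 for CDH1 to 0.60 for KRT19 (10.17 against 9.58). The SNAP25 and KRT19 differences were over 1.5-fold, and the part of these shifts in the members' differences was not tested. Of the markers of fibroblasts (2 of 6), endothelium (1 of 4), leukocytes (2 of 4), hepatocytes (1 of 3) and adipocytes (1 of 4) few reached the median level, and their summed log2 levels were 29.5 and 29.8, 17.6 and 18.1, 19.6 and 20.5, 14.3 and 14.4, and 16.5 and 16.6 in ALDH high and control. The adipocyte and hepatocyte markers ADIPOQ and ALB stood at 2.32 and 3.36 in ALDH high. The leukocyte marker CD14 stood at 4.30 and 5.32, dim on both arrays. Hybridisation controls, added after labelling, had a mean difference of 0.05 (18 probe sets, SD 0.04). The ratio of 3' to 5' probe sets was 1.83 in ALDH high and 1.67 in control for ACTB, and 1.14 and 1.15 for GAPDH. The part of RNA quality in the differences was not tested.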

How the data were processed

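Gene expression was measured on 1 Affymetrix array of ALDH-high and 1 of control QGP1 cells. The authors deposited log2 levels, and the submitters' processing notes name RMA, which corrects background, quantile-normalises arrays and summarises probes. Neither its version nor the set of arrays normalised is given in the sources used here. Labelling primed from the poly-A tail, per the labels' protocols. Of 54675 probe sets, 62 were controls. GEO's platform annotation gave 41091 of the others 1 gene symbol, 1801 several and 11721 none, and only the first were named. Through Entrez IDs, 41037 were found in RefSeq (GRCh38.p14), with 0 symbols changed. Array medians were 5.68 and 5.68. Both were used as deposited, without a filter. The number of arrays limits the precision.

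The difference, ALDH high minus control, was taken for the probe set with the highest mean (pandas 2.3.3, numpy 2.4.6), checked on simulated data. Shared-target probe sets have IDs ending in _s_at or _x_at. Members and lists were chosen with earlier results of these data known. All members are named, and of the other genes mainly those over 1.5-fold. Alternatives were the mean or median of all probe sets, no shared-target probe sets, a pseudocount of 32, median centring, a level filter and thresholds of 0.32 (log2) and 2-fold. Of the 38 other genes, 7 were not analysed here. Promoter sequences are RefSeq's.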

Additional observations from a re-analysis of the deposited data

How the results depend on the processing

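No paired analysis was possible because each group had 1 array. As the mean of all probe sets, the median difference was 0.42 for the sterol arm and 0.37 for all members, and 3 sterol arm genes (3 of all members) were over 1.5-fold higher instead of 6. As the median of all probe sets, the sterol arm stood at 0.43. Without shared-target probe sets the medians were 0.43 for the sterol arm, 0.14 for the fatty acid arm and 0.33 for all members, and IDI1 turned to -0.05, the value of its 1 remaining probe set. At a threshold of 0.32 on the log2 scale, 13 sterol, 4 fatty acid and 2 regulator genes were higher (19 of all members), and 0, 1 and 1 lower (2 of all members). At 2-fold, 1 sterol arm gene, and 1 of all members, was higher. Centring the arrays, the pseudocount and the level filter moved no median of these groups by more than 0.03. The sterol arm stayed above the fatty acid arm in median under the 6 alternatives that recomputed it, by 0.18 to 0.29. Centring and the level filter could not change this difference, because centring shifts both arms alike and the filter removed no measured member. With 1 array per group, none of these ranges covers variation between cultures or sorts, and dim probe sets could show little.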

Other observations

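The 3 genes listed under fatty acid oxidation lay below 0 on their main probe sets in the ALDH-high cells, all within 1.5-fold. So did 9950 of all 19775 genes, at any size of difference. Of 12 other genes listed under fatty acid synthesis and activation, 6 were below 0, so the sign did not separate use from synthesis. CPT1A, which admits long-chain fatty acids to mitochondria, stood at 10.03 in ALDH high and 10.42 in control, with its 4 probe sets from -0.45 to -0.02. HADHA, a subunit of the mitochondrial trifunctional protein of beta-oxidation, stood at 10.32 against 10.54, with all 3 probe sets below 0. ACAT1, the mitochondrial thiolase, stood at 11.05 against 11.44, opposite in sign to its cytosolic counterpart ACAT2, although a dim ACAT1 probe set gave 0.42 (5.05 against 4.63) and the mean of its probe sets was -0.01. These 3 genes were listed with the results of these arrays known, and no difference has a replicate check.

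ACSL1, a long-chain acyl-CoA synthetase, was 1.53-fold lower (10.34 against 10.95), with a second probe set at -0.54, whereas ACSL4, which prefers polyunsaturated fatty acids, stood at 8.90 against 8.77. PPARG, the nuclear receptor of fat storage, stood at 3.91 against 4.55 at a dim level, and its difference of -0.64 became -0.24 with a pseudocount of 32.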
